A study of Mus musculus with 6 samples.

Results

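Genes of the primary cilium that carry Hedgehog signals were examined in mouse livers made to express Sonic Hedgehog (SHH), set against livers expressing green fluorescent protein (GFP). A list of 42 genes was followed by symbol: subunits of intraflagellar transport, ciliary kinesins, the BBSome and its assembly factors, ciliary regulators of the Hedgehog pathway and genes listed under the transition zone. Of these, 38 had a probe set naming that gene alone, among 22180 genes measured that way. Inpp5e and Tctn1 had only a probe set shared with another gene, and Arl6 and Arl13b were not analysed here. Each measured gene had 1 such probe set except Kif7, for which the brighter of 2 was used.

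The 6 livers came from male C57BL/6 mice, with 3 in the SHH group (mice 26, 28 and 31) and 3 in the GFP group (mice 6, 13 and 21). Per the series' design text the genes were delivered by hydrodynamic transfection, in which DNA injected in a large volume is taken up by liver cells. The sources used here give no age of the mice, no time after injection and no promoter driving SHH or GFP. Total RNA of each liver was hybridised to 1 Affymetrix array, and values are log2 signals. Values of single livers are given below in the order of the mouse numbers above.

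The primary cilium is a single antenna on the cell surface, built and maintained by intraflagellar transport. In vertebrates the receptor Ptch1 keeps the transducer Smo out of the cilium until a Hedgehog ligand binds. Smo then gathers in the cilium, and the Gli transcription factors pass through its tip before they act in the nucleus. In the liver, bile duct cells carry primary cilia, whereas hepatocytes mostly lack them. In RNA of whole liver, fewer cells of a type and less RNA per cell cannot be told apart.

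The arrays resembled one another and carried the marks of liver. Median signals of the arrays ran between 4.32 and 4.40, and pairwise correlations over probe sets naming 1 gene between 0.981 and 0.990. The 11 measured hepatocyte markers, among them albumin, averaged 12.34, 12.36 and 12.24 in SHH livers and 12.24, 12.22 and 12.27 in GFP livers, with 9 higher and 2 lower means. The Shh probe set read 4.57, 4.28 and 4.63 in SHH livers, against 3.86, 3.43 and 3.67 in GFP livers. Nothing in the labels tells if these probes match the Shh sequence that was injected.

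The cilium genes showed no change that passed the test. Of the 38, 0 were higher and 0 lower in SHH livers at the threshold of 0.05 (limma, Benjamini-Hochberg adjustment over all 22180 genes), where 0% of all genes passed in either direction. At an unadjusted p under 0.05 the counts of cilium genes were also 0 and 0, against 3.33% of all genes higher and 4.01% lower. The smallest adjusted p among them was 0.742, that of Bbs9. Leaving out the SHH 26 liver gave 30 higher and 16 lower genes over the whole array, but still 0 cilium genes. Without SHH 26, SHH 28 or SHH 31 a single cilium gene had an unadjusted p under 0.05, namely Bbs9, Bbs12 and Bbs4 in that order.

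The intervals show how large a change these arrays leave room for. All 38 of the 95% intervals of the SHH minus GFP difference lay between -1 and 1 on the log2 scale, that is, inside a doubling or halving of the signal. So did the intervals of 96.1% of all genes, so this is no trait of the cilium genes. For 31 of the 38 the interval also lay between -0.5 and 0.5, a share of 81.6%, against 55.8% of all genes. Among genes above the median gene by mean level, as 30 of the 38 were, the share was 61.1%. It was 68.9% for other cilium genes and 70.4% for the Hedgehog pathway list, both described further on. Among the other lists it ran from 0% (macrophage markers) to 90.9% (hepatocyte markers), so narrow intervals were not confined to the cilium genes. The lowest bound was -0.52 (Ift43 and Kif3b) and the highest was 0.76 (Bbs9). Hhip, the Hedgehog-binding membrane protein that the pathway itself induces, is given for comparison. It had 7.004, 6.48 and 6.84 in SHH livers and 5.40, 5.29 and 5.45 in GFP livers, with all SHH livers above the GFP livers, and differed by 1.39 with an interval of 1.04 to 1.74. The lower bound for Hhip lay above the upper bound of every one of the 38 cilium genes. Hhip did not pass over all genes (limma, adjusted p = 0.174), and passed without SHH 26 (limma, adjusted p = 0.0349).

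**Figure D1:**
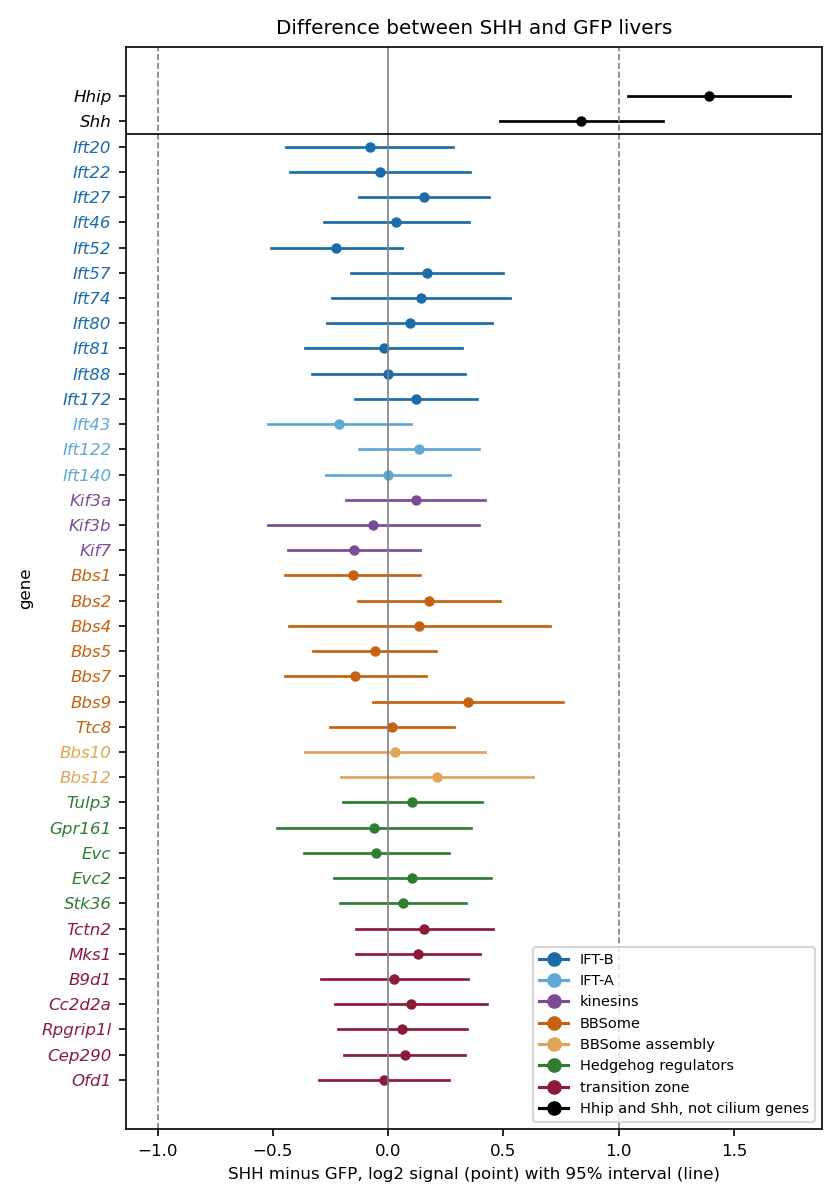
Difference of mean log2 signal, SHH minus GFP (points), with 95% limma intervals (lines), for 38 cilium genes coloured by role and for Hhip and Shh above them; dashed lines mark -1 and 1. All cilium gene intervals lie between the dashed lines, as do 96.1% of those of all genes. The cilium gene intervals also cross 0, whereas those of Hhip (1.04 to 1.74) and Shh (0.48 to 1.19) do not reach 0.

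Mean signals were higher in SHH livers for 24 cilium genes and lower for 14, against 43.8% of all genes with a higher mean. Their median difference was 0.05 on the log2 scale, and the median over all genes was -0.03. Relative to GFP livers the median cilium gene stood at 0.03, 0.08 and 0.04 in the SHH livers. Each GFP liver set against the other 2 gave -0.06, 0.05 and 0.05, so the shifts of SHH livers and GFP livers overlapped. Every SHH liver lay above every GFP liver for 3 cilium genes (Ift172, Ift122 and Mks1), where 5.26% of all genes did so. The reverse held for Ift52 alone, where 7.25% of all genes did so. With equal array medians the counts were 2 higher and 3 lower, where 5.36% and 6.36% of all genes did so, and with a second quantile normalization they were 2 and 2, where 6.28% and 6.65% did. The counts thus depended on the scaling of the arrays.

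The signals were also steady between animals. The gap between the highest and lowest of the 6 livers had a median of 0.39 over the cilium genes, against 0.51 over all genes. It was under 0.5 for 26 of the 38, and for 48.75% of all genes. All genes include dimmer ones, and no genes of matched signal level were compared. Whether a small gap is particular to the cilium genes was thus not tested. Among the 38 the gap varied. It was smallest for Ift140 (0.16) and exceeded 1 only for Bbs4 (1.08). The median SD of the 3 livers was 0.13 in the SHH group and 0.10 in the GFP group, where all genes had 0.17 and 0.15. No liver was high or low throughout: SHH 28 held the highest value of 12 genes and GFP 6 the lowest of 11. Of the 38 genes, 30 lay above the median signal of the array on all 6 arrays, 7 on some of them, and Bbs12 on none. That median, like the lower quartile below, was taken over all 41345 probe sets, named or not. Medians over the 22180 genes were higher, from 4.66 to 4.77, and by mean level 30 of the 38 lay above the median gene. All 38 lay above the lower quartile of every array, and array signals tend to understate changes of dim genes.

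**Figure D2:**
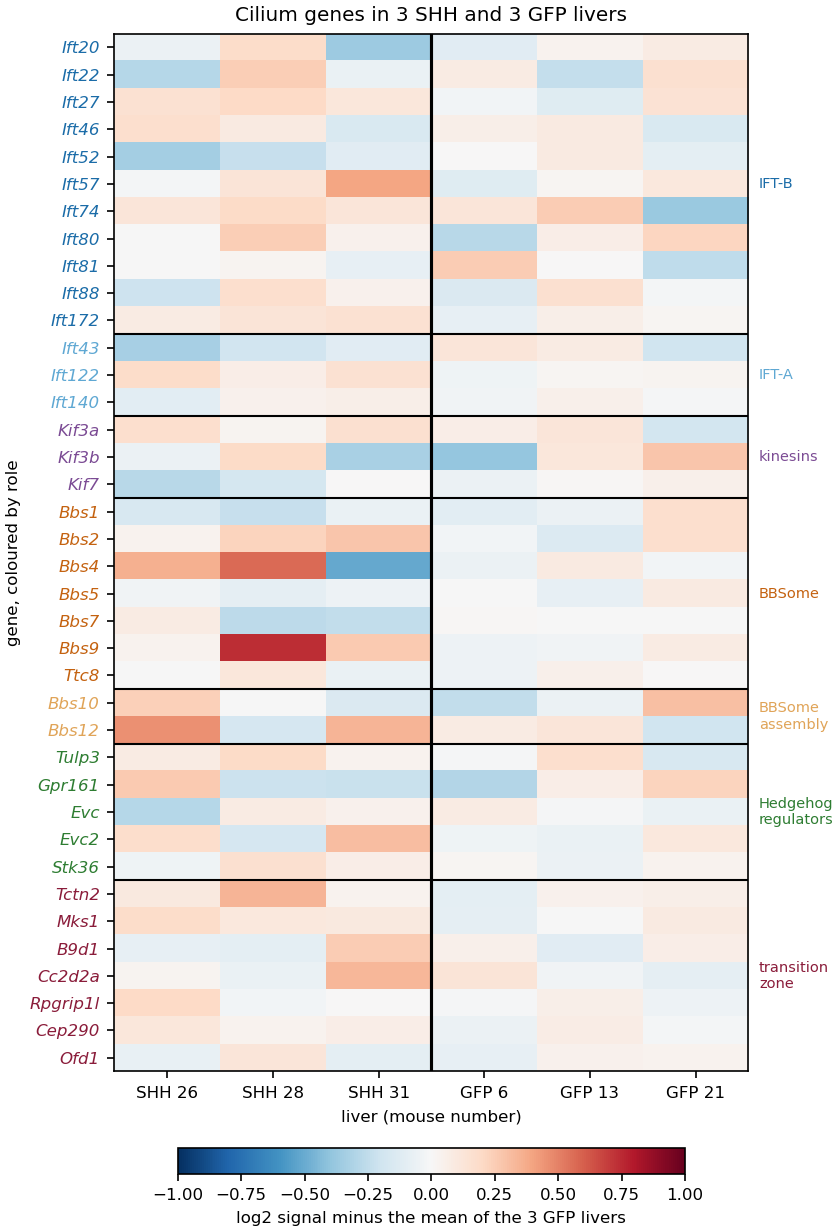
Log2 signal of each of the 38 cilium genes (lines, grouped by role) in each liver (columns, SHH left of GFP), minus the mean of the 3 GFP livers; red is higher and blue lower. Most cells are pale, and the strongest colours belong to Bbs9 in SHH 28 (6.70 against a GFP mean of 5.96) and to Bbs4 in SHH 28 and SHH 31 (5.67 and 4.60 against 5.11).

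Many cilium genes are known targets of RFX transcription factors, which bind the X-box, a paired motif in their promoters. RefSeq promoter windows (GRCm38.p6, 250 bases before to 50 after the annotated start) were found for 35 of the 38 genes, 36 windows in all. They were searched on both strands for GTNNCC followed by GNAAC with 0 to 4 bases between them. This paired motif was in 10 of the 36 windows (27.8%), each of a different gene, against 5.94% of 20520 windows of all measured genes. Other cilium genes, a list described further on, had it in 26.1% of 46 windows and the Hedgehog pathway list in 3 of 30. The arm GTTGCC, which can be part of the paired motif, was in 38.9% of the cilium gene windows and in 12.5% of all. The Gli motif TGGGTGGTC was in 0 of the 36 windows and in 0.205% of all. These are letter matches and not shown to be bound. Ift80, Ift81 and Ift122 were not in the promoter table.

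The matches are shown as a sequence feature. The genes were not chosen by a search for the motif, but many cilium genes are known RFX targets. The motif may thus not be independent of that choice. Each is written in capitals on the strand of its gene, the first one where a window held 2. Where the letters as printed do not follow the motif, as for Tctn2 and Ift74, the match is on the opposite strand.
Tctn2: GTTACCATGGCTAC
Bbs1: GTTGCCAAGGCGAC
Ift57: GTTGCCGTGGTGAC
Mks1: GTTGCCAGGGGAAC
Bbs7: GTTGCCTTGGAAAC
Ift74: GTTGCTAGGATAC
Bbs4: GTCGCCCGGGAAAC
Stk36: GTTTCTAGGCAAC
Ift46: GTTGCGGAAAC
Ift22: GTTTCCTGGGCTAC

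The genes with the paired motif are set beside those without it as a description. The median difference was 0.10 for the 10 genes with a match, from -0.15 to 0.17, and 0.03 for the 25 without. Higher means in SHH livers were found for 7 of the 10 and for 15 of the 25. The 3 windows printed here belong to the genes with the smallest p among those with a match, with the motif in capitals and the text running from 250 bases before the start to 15 after it. The Tctn2 window lies at chr5:124598499-124598763 on the plus strand, with the match 62 to 49 bases before the start. The Bbs1 window lies at chr19:4906613-4906877 on the minus strand, with the match at bases 2 to 15 of the transcript. The Ift57 window lies at chr16:49699044-49699308 on the plus strand, with matches 87 to 74 and 60 to 48 bases before the start.
Tctn2: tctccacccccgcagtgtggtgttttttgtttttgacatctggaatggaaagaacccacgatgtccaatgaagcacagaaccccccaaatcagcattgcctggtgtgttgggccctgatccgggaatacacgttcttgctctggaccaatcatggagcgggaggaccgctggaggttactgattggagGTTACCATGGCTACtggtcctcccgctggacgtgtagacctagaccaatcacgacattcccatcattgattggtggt
Bbs1: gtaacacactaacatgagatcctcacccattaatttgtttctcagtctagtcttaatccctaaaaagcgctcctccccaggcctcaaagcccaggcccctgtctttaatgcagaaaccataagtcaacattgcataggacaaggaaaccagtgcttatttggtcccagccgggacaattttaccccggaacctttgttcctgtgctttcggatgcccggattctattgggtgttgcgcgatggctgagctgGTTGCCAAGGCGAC
Ift57: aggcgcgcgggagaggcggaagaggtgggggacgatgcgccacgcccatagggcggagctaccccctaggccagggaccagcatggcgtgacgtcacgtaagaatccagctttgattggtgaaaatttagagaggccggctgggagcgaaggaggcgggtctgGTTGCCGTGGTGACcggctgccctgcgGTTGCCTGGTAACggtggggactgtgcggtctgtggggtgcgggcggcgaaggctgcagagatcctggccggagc

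Intraflagellar transport complex B carries cargo from the cell body to the ciliary tip. All 11 of its genes on the list were measured: Ift20, Ift22, Ift27, Ift46, Ift52, Ift57, Ift74, Ift80, Ift81, Ift88 and Ift172. Higher means were found for 7 and lower means for 4, with differences from -0.23 to 0.17 and a median of 0.03. Ift52, a core subunit, had the smallest p of the complex. Its signal was 7.12, 7.23 and 7.35 in SHH livers, against 7.46, 7.55 and 7.36 in GFP livers. The groups did not overlap, though only narrowly, with 7.346 in SHH 31 and 7.362 in GFP 21. The difference was -0.23 (95% interval -0.51 to 0.06; limma, adjusted p = 0.762), a signal 1.17-fold lower.

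Ift172, a large peripheral subunit, differed the other way, with 6.16, 6.21 and 6.24 in SHH livers against 6.00, 6.14 and 6.10 in GFP livers. Its groups did not overlap either, yet the difference was 0.12 (95% interval -0.14 to 0.38; limma, adjusted p = 0.876). Ift57, whose promoter holds 2 of the printed matches, had 4.91, 5.06 and 5.33 in SHH livers and 4.81, 4.95 and 5.04 in GFP livers. The SHH 31 liver alone stood above the GFP livers by more than 0.1, and the difference was 0.17 (95% interval -0.16 to 0.50).

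Ift27, a small GTPase of complex B that acts in the exit of the BBSome from cilia, had 5.73, 5.78 and 5.70 in SHH livers and 5.56, 5.46 and 5.73 in GFP livers. SHH livers were close together, and GFP 21 lay among them. The difference was 0.15 (95% interval -0.13 to 0.44). Ift20, the subunit that also works at the Golgi, had 9.21, 9.45 and 8.90 in SHH livers and 9.15, 9.30 and 9.35 in GFP livers. The difference of -0.08 (95% interval -0.44 to 0.28) turned to 0.06 without SHH 31.

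Ift88, whose loss abolishes cilia in mice, was the cilium gene with the largest p. It had 5.71, 6.08 and 5.96 in SHH livers and 5.77, 6.08 and 5.90 in GFP livers, nearly the same values in both groups. Its 95% interval ran from -0.33 to 0.33. Ift22, Ift46, Ift80 and Ift81 differed by -0.04, 0.03, 0.09 and -0.02, with overlapping groups. Ift74 differed by 0.14, with SHH livers between 4.33 and 4.40 and GFP livers between 3.84 and 4.46; the sign turned without GFP 21.

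Complex A returns cargo to the cell body and, with Tulp3, brings membrane receptors into the cilium. Of its 3 genes on the list, 1 had a higher mean and 2 lower means. Ift43, the smallest subunit, had 5.64, 5.78 and 5.85 in SHH livers, against 6.09, 6.05 and 5.77 in GFP livers. GFP 21 lay within the SHH values, and the difference was -0.21 (95% interval -0.52 to 0.10; limma, adjusted p = 0.796).

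Ift122, a core subunit of complex A, had 4.50, 4.39 and 4.47 in SHH livers and 4.28, 4.34 and 4.35 in GFP livers. The groups did not overlap, the difference was 0.13 (95% interval -0.13 to 0.39; limma, adjusted p = 0.859), and the signal was near the array medians. Ift140, another core subunit, had 5.66, 5.80 and 5.82 in SHH livers and 5.72, 5.81 and 5.75 in GFP livers, all within 0.16 of one another. Ift43 and Ift122 belong to the same complex and stood on opposite sides.

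The kinesins comprise Kif3a and Kif3b, the motor pair of transport toward the tip, and Kif7, which sits at the tip and restrains and shapes Gli activity. Kif3a differed by 0.12 and Kif3b by -0.06, with overlapping groups. Kif3b varied in both groups, from 4.94 to 5.45 in SHH livers and from 4.87 to 5.54 in GFP livers. Kif7 had 4.62, 4.72 and 4.90 in SHH livers and 4.84, 4.91 and 4.95 in GFP livers. SHH 31 lay within the GFP range, and the difference was -0.15 (95% interval -0.44 to 0.14; limma, adjusted p = 0.853). The dimmer Kif7 probe set differed by -0.06, in the same direction.

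The BBSome is a coat that carries membrane proteins, Smo among them, out of the cilium. Of its 7 measured genes, 4 had higher and 3 lower means, with differences from -0.15 to 0.35 and a median of 0.02. It held the genes that varied most between SHH livers. Bbs9, a scaffold subunit, had 6.00, 6.70 and 6.23 in SHH livers and 5.91, 5.93 and 6.05 in GFP livers. SHH 28 stood well above the rest and SHH 26 lay within the GFP range. The difference of 0.35 was the largest among the cilium genes (95% interval -0.06 to 0.76), 1.27-fold. Its unadjusted p was 0.0890 (limma; adjusted p = 0.742). It became 0.15 without SHH 28 and 0.50 without SHH 26.

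Bbs4, a subunit that links the coat to centriolar satellites, had 5.46, 5.67 and 4.60 in SHH livers and 5.05, 5.20 and 5.08 in GFP livers. SHH 26 and SHH 28 were above all GFP livers and SHH 31 was below all of them. The SD was 0.57 in SHH livers and 0.08 in GFP livers (n = 3 each). The difference of 0.13 (95% interval -0.43 to 0.70; limma, adjusted p = 0.939) became 0.46 without SHH 31 and -0.08 without SHH 28, so its sign depends on single animals. Bbs4 was singled out for this spread after its values were seen.

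Bbs2, part of the core of the coat, had 5.28, 5.46 and 5.52 in SHH livers and 5.22, 5.10 and 5.41 in GFP livers, overlapping at GFP 21. The difference was 0.18 (95% interval -0.13 to 0.48). Bbs1, the subunit that binds the GTPase Arl6, had 4.79, 4.72 and 4.89 in SHH livers and 4.85, 4.89 and 5.12 in GFP livers. SHH 31 overlapped the GFP range, and the difference was -0.15 (95% interval -0.45 to 0.14). These subunits of one coat, Bbs2 and Bbs1, thus stood on opposite sides, neither past the test.

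Bbs7 had 5.58, 5.24 and 5.25 in SHH livers and 5.51, 5.50 and 5.49 in GFP livers. SHH 26 lay above the GFP livers and the other SHH livers below them, around a difference of -0.14 (95% interval -0.45 to 0.16). Bbs5, a subunit that binds membrane lipids, had 5.24, 5.18 and 5.22 in SHH livers and 5.27, 5.19 and 5.36 in GFP livers, a difference of -0.06 (95% interval -0.32 to 0.21). Ttc8, also known as Bbs8, differed by 0.02 with overlapping groups.

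Bbs10 and Bbs12 belong to a chaperonin-like complex that helps the BBSome assemble. Bbs12 had 4.27, 3.64 and 4.16 in SHH livers and 3.89, 3.93 and 3.61 in GFP livers. SHH 26 and SHH 31 lay above the GFP livers and SHH 28 among them, below the array median throughout. The difference was 0.21 (95% interval -0.21 to 0.63; limma, adjusted p = 0.858), and 0.40 without SHH 28. Bbs10 differed by 0.03, with 4.29 to 4.67 in SHH livers and 4.19 to 4.73 in GFP livers.

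**Figure D3:**
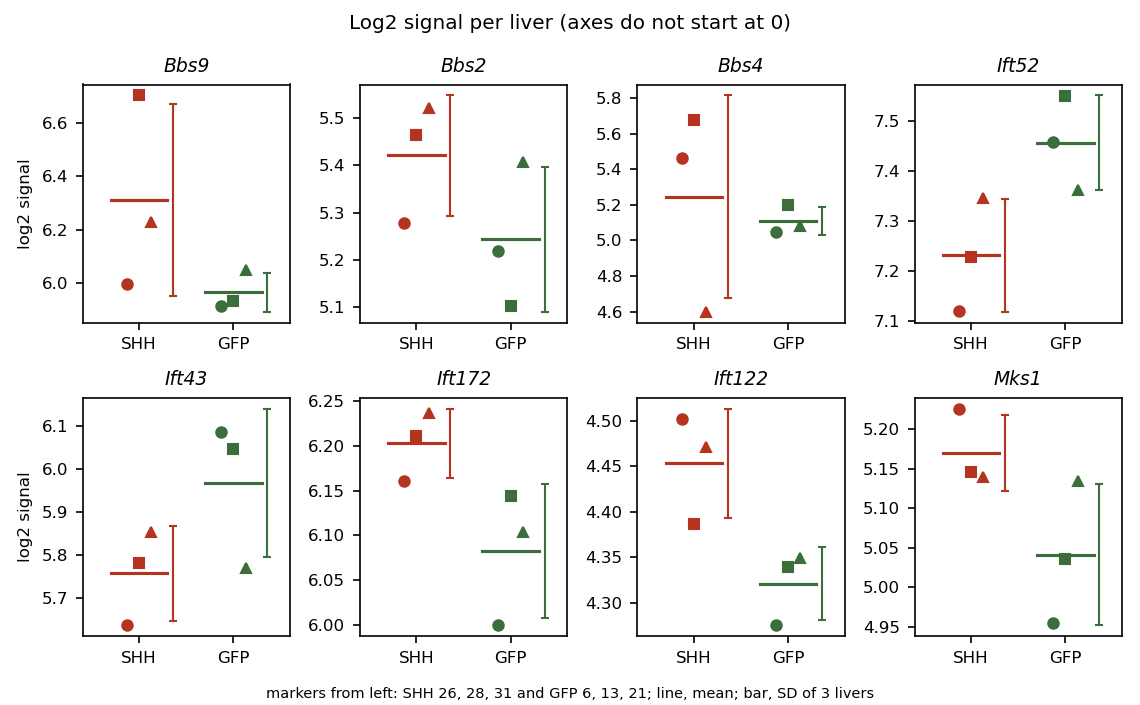
Log2 signal of 8 cilium genes in each SHH liver (red, left) and GFP liver (green, right), with the group mean (line) and SD of 3 livers (bar); vertical axes differ between panels and do not start at 0. Bbs9 and Bbs4 spread widely within the SHH group (SD 0.36 and 0.57), while Ift52, Ift172, Ift122 and Mks1 have groups that do not overlap but differ by at most 0.23.

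Among the regulators of Hedgehog signalling in the cilium, 3 of 5 measured genes had higher and 2 lower means, from -0.06 to 0.11. Tulp3, the adaptor that delivers receptors such as Gpr161 to the cilium, had the smallest p. It had 5.14, 5.25 and 5.09 in SHH livers and 5.04, 5.22 and 4.89 in GFP livers, with overlapping groups and a difference of 0.10 (95% interval -0.20 to 0.41; limma, adjusted p = 0.912), which lay between 0.025 and 0.19 with 1 mouse left out. Gpr161, a receptor that keeps the pathway off by raising cAMP, had 4.68, 4.20 and 4.20 in SHH livers and 4.13, 4.49 and 4.64 in GFP livers. It differed by -0.06 (95% interval -0.48 to 0.36), and its sign changed with the liver left out.

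Evc and Evc2 form a complex at the base of the cilium that passes the signal of active Smo to the Gli factors. They are neighbours on chromosome 5, read in opposite directions, and their RefSeq promoter windows are 1096 bases apart. Evc had 4.87, 5.23 and 5.20 in SHH livers and 5.24, 5.14 and 5.08 in GFP livers, a difference of -0.05 (95% interval -0.37 to 0.26). Evc2 had 5.22, 4.87 and 5.35 in SHH livers and 5.001, 4.98 and 5.14 in GFP livers, a difference of 0.11 (95% interval -0.24 to 0.45) that became 0.005 without SHH 31 and 0.24 without SHH 28. Both pairs of groups overlapped, and Evc was lowest in SHH 26 whereas Evc2 was lowest in SHH 28. Evc2 was given per mouse for its place beside Evc. Stk36, the relative of the fly kinase Fused, differed by 0.06 with overlapping groups.

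The transition zone is the gate at the base of the cilium that decides which proteins enter. Of the 7 measured genes listed under it, 6 had higher means and 1, Ofd1, a lower mean. Differences ran from -0.02 to 0.16 with a median of 0.07. Tctn2, a gate protein needed for Hedgehog signalling in mouse embryos, had 4.78, 5.02 and 4.72 in SHH livers and 4.59, 4.73 and 4.74 in GFP livers. SHH 28 was highest and SHH 31 lay within the GFP range. The difference was 0.16 (95% interval -0.14 to 0.45; limma, adjusted p = 0.849), and 0.068 without SHH 28.

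Mks1, mutated in Meckel syndrome, had 5.23, 5.15 and 5.14 in SHH livers and 4.95, 5.04 and 5.13 in GFP livers. The groups did not overlap, though only narrowly, with 5.140 in SHH 31 and 5.134 in GFP 21. The difference was 0.13 (95% interval -0.14 to 0.40; limma, adjusted p = 0.868). The other genes listed under this role, B9d1, Cc2d2a, Rpgrip1l, Cep290 and Ofd1, differed by 0.03, 0.10, 0.06, 0.07 and -0.02, all with overlapping groups. All 7 intervals of the genes listed under the transition zone lay between -0.5 and 0.5.

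Beyond these genes, 45 further cilium genes were measured from a list of 55, among them other transport subunits, gate proteins and kinases. Of the 45, 23 had higher and 22 lower means, 0 passed in either direction over all genes, and 1 each way had an unadjusted p under 0.05, where 3.33% of all genes were higher and 4.01% lower by that measure. These counts of 1 of 45 lie below those shares, and the genes are named only as those with the smallest p. The median difference of the 45 was 0.007. Tmem67, a receptor-like protein of the transition zone, had 5.72, 6.35 and 6.05 in SHH livers and 5.59, 5.29 and 5.70 in GFP livers. All SHH livers lay above the GFP livers, SHH 26 by the least, and the signal was 1.43-fold higher without passing (limma, adjusted p = 0.612). The log2 difference of 0.52 became 0.31 with the mean of all Tmem67 probe sets and 0.36 without SHH 28. Mak, a kinase that limits ciliary length, had 3.30, 3.51 and 3.34 in SHH livers and 3.84, 4.04 and 3.75 in GFP livers. It was 1.41-fold lower without passing (limma, adjusted p = 0.489), at signals below the array medians.

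Wdr35, a subunit of complex A, had 4.99, 5.91 and 5.30 in SHH livers and 4.89, 5.02 and 5.08 in GFP livers. As with Bbs9 and Tmem67, SHH 28 was highest and SHH 26 lowest of the SHH livers; the difference was 0.41 (95% interval -0.08 to 0.90) and became 0.15 without SHH 28. These 3 genes were set side by side after their values were seen.

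Of 27 measured genes of the Hedgehog pathway from a list of 30, 13 had higher and 14 lower means and 0 passed over all genes, with a median difference of -0.004. An unadjusted p under 0.05 was found for 3, all higher: Hhip, Shh and Gpc3, a glypican that binds Hedgehog ligands. Over all genes 3.33% were higher and 4.01% lower by that measure. Gpc3 had 3.86, 3.95 and 4.04 in SHH livers and 3.63, 3.64 and 3.42 in GFP livers, below the array medians. Smo, the transducer that the cilium concentrates, had 6.33, 6.09 and 5.86 in SHH livers and 6.03, 5.65 and 5.94 in GFP livers. SHH 31 lay within the GFP range, and the difference was 0.22 (95% interval -0.15 to 0.59; limma, adjusted p = 0.825). It became 0.10 without SHH 26, 0.11 without GFP 13 and 0.34 without SHH 31.

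Markers of immune cells had larger median differences than the cilium genes. Of 12 macrophage markers all 12 had higher means, 8 of them at an unadjusted p under 0.05, with a median difference of 0.65. For comparison, 43.8% of all genes had a higher mean and 3.33% were higher at an unadjusted p under 0.05. All 8 neutrophil markers had higher means, by a median of 0.75, and all 11 measured lymphocyte markers, by a median of 0.42. Over all genes 0 genes of these lists passed (limma). At an unadjusted p under 0.05, 5 neutrophil and 4 lymphocyte markers were higher, where 3.33% of all genes were. The 12 macrophage markers averaged 7.03, 7.17 and 7.94 in SHH livers and 7.18, 6.43 and 6.41 in GFP livers, so GFP 6 overlapped the SHH livers. Of 17 cell cycle genes 15 had higher means, with a median difference of 0.20, and stood at 5.01 on average in SHH 31 against 4.36 to 4.53 in the other livers. At an unadjusted p under 0.05, 2 of the 17 were higher, where 3.33% of all genes were. Mcm6, a replication helicase subunit, is named as the cell cycle gene with the smallest p. It was 1.41-fold higher without passing (limma, adjusted p = 0.649), and its log2 difference of 0.50 became 0.28 without SHH 31.

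For cells that carry cilia in the liver, 15 bile duct markers averaged 4.41, 4.36 and 4.49 in SHH livers and 4.50, 4.39 and 4.49 in GFP livers. The groups overlapped and the median difference was -0.010, with 7 higher and 8 lower means. Of the 15, 1 had an unadjusted p under 0.05, where 4.01% of all genes were lower by that measure. It was Pkhd1, named here only as the bile duct marker with the smallest p. Pkhd1, a ciliary membrane protein of bile duct cells, had 5.42, 5.34 and 5.57 in SHH livers and 5.81, 5.92 and 5.65 in GFP livers. Its signal was 1.27-fold lower without passing (limma, adjusted p = 0.634). The 18 markers of stellate cells and fibroblasts averaged 6.59, 6.47 and 6.68 in SHH livers and 6.54, 6.43 and 6.39 in GFP livers, with 14 higher means and a median difference of 0.13. Colec10, a stellate cell lectin and the gene of that list with the smallest p, was 1.45-fold higher without passing (limma, adjusted p = 0.521). It was the only 1 of the 18 with an unadjusted p under 0.05, where 3.33% of all genes were higher by that measure. What the mix of cells contributed to the cilium gene signals was not tested.

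**Figure D4:**
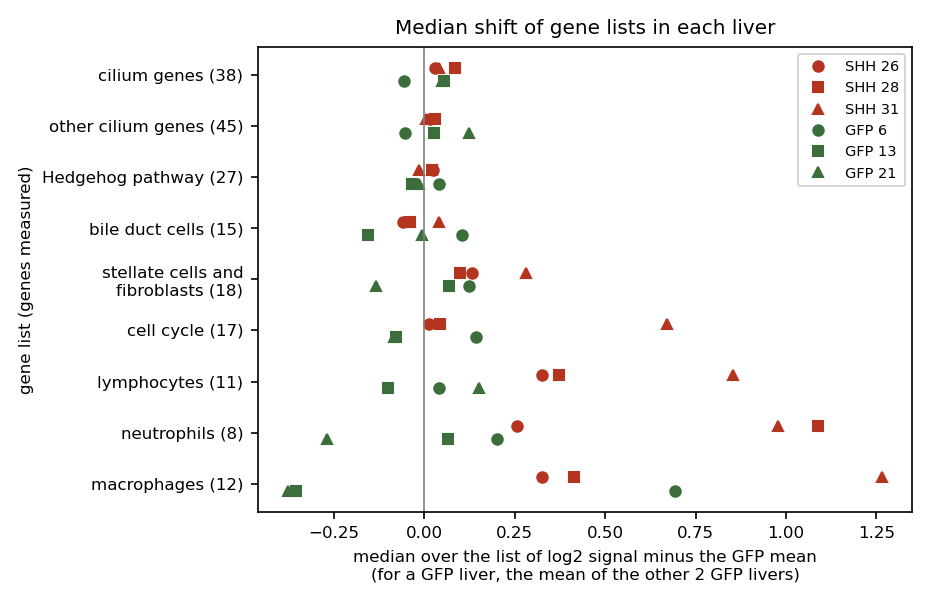
Median over each gene list (numbers of genes in brackets) of the log2 signal minus the GFP mean, for each SHH liver (red, drawn above) and each GFP liver (green, set against the other 2 GFP livers). The cilium genes lie between -0.06 and 0.08 in all 6 livers, whereas the macrophage list reaches 1.27 in SHH 31 and 0.69 in GFP 6.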

How the data were processed

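Per the labels' protocols, total RNA extracted with Trizol was turned into biotin-labelled cRNA, 1 Affymetrix array per mouse. The deposited values are log2 signals made with RMA by the authors, per the submitters' processing notes; RMA corrects background, equalises the distributions of the arrays and summarises probe sets. The sources used here state no version of RMA. Of 41345 probe sets, 23521 named 1 gene in the platform annotation, 1814 several and 16010 none here. Where several probe sets named a gene alone, the brightest on average was kept. SHH was set against GFP by a two-sided limma test (version 3.58.1, R 4.3.3; lmFit and eBayes, no covariate, no filter on level), adjusted over 22180 genes at 0.05. Nothing in the labels pairs the mice or names a batch. With 3 mice a group, permuting labels exactly gives no p under 0.1 and was not used. SD and n refer to 3 mice, and the number of arrays limits the precision. Folds were taken from log2 differences of means.

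The cilium genes and all lists were chosen with earlier results of these data known, so no p over a list is given. Per-mouse values were given for up to 8 cilium genes per direction and the gene of each role with the smallest unadjusted p, and for Shh, Hhip and Smo, with up to 3 genes from other lists; the rest are given by differences and ranges. Ift172, Ift88, Ift140, Bbs4, Gpr161 and Evc2 were given per mouse outside this rule, after their values were seen. Promoter sequences are RefSeq's (GRCm38.p6). Alternatives covered the choice of probe set, dim genes, normalization, the prior, array weights, the threshold and each mouse left out.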

Additional observations from a re-analysis of the deposited data

How the results depend on the processing

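The cilium genes were recomputed under 16 alternatives, and 0 passed over all genes in any of them. Over the whole array, the counts of 0 higher and 0 lower genes stayed at 0 except without SHH 26; leaving out single mice gave 0 to 30 higher and 0 to 16 lower. The median difference of the cilium genes ranged from 0.018 to 0.077 with a mouse left out. Of 600 values for the 38 cilium genes, 558 kept their direction, but many of the 600 could not have changed it. The trended and robust priors, the threshold of 0.1, the test of every probe set and the limit to brighter genes reuse the same group means. The other choices of probe set could move only Kif7. The 42 changes came from leaving out a mouse (35) and from array weights or another normalization (7). Throughout all settings, 20 genes kept their direction. The other 18 all differed by at most 0.14 as reported, and the cause of each change was not tested. With array weights the differences were -0.005 for Ift88, 0.038 for Kif3b, 0.056 for Gpr161 and -0.020 for B9d1. A second quantile normalization gave -0.021 for Ift88 and -0.019 for Ttc8, and equal array medians gave 0.003 for Ift140. With 1 mouse left out, the ranges were -0.212 to 0.062 for Ift20, -0.177 to 0.089 for Ift22, -0.044 to 0.126 for Ift46, -0.043 to 0.270 for Ift74, -0.046 to 0.203 for Ift80, -0.147 to 0.107 for Ift81, -0.082 to 0.104 for Ift88, -0.032 to 0.050 for Ift140, -0.259 to 0.076 for Kif3b, -0.080 to 0.458 for Bbs4, -0.033 to 0.055 for Ttc8, -0.091 to 0.180 for Bbs10, -0.221 to 0.050 for Gpr161, -0.118 to 0.063 for Evc, -0.088 to 0.088 for B9d1, -0.020 to 0.180 for Cc2d2a, -0.011 to 0.103 for Rpgrip1l and -0.087 to 0.023 for Ofd1. Of the genes that kept their direction, some moved by over 1.5 times with 1 mouse left out: 0.093 to 0.228 for Ift27, 0.055 to 0.263 for Ift57, 0.079 to 0.152 for Ift172, 0.025 to 0.179 for Kif3a, -0.225 to -0.086 for Kif7, -0.206 to -0.071 for Bbs1, 0.107 to 0.259 for Bbs2, -0.101 to -0.015 for Bbs5, -0.256 to -0.083 for Bbs7, 0.148 to 0.503 for Bbs9, 0.087 to 0.401 for Bbs12, 0.014 to 0.116 for Stk36, 0.086 to 0.175 for Mks1 and 0.041 to 0.110 for Cep290, besides Tulp3, Evc2 and Tctn2. With 1 mouse left out, 3 to 7 cilium genes had groups that do not overlap and higher values in SHH livers, where 8.99% to 10.7% of all genes did, and 1 to 3 had lower values, where 11.5% to 14% did. With only genes above the median gene, 30 of the 38 were tested. No paired analysis was possible because no mouse number occurs in both groups.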

Other observations

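A list of 11 transcription factors was also followed: Rfx1 to Rfx7, Foxj1, Glis3, Mcidas and Gmnc. Whether each of them acts on cilium genes in liver was not tested. Of 11 such factors, 6 had higher and 5 lower means in SHH livers, 0 passed over all genes (limma) and 1 had an unadjusted p under 0.05, where 4.01% of all genes were lower by that measure. That 1 was Rfx4, with 4.64, 4.50 and 4.52 in SHH livers and 4.97, 4.73 and 5.14 in GFP livers, 1.31-fold lower (limma, adjusted p = 0.612). Of 18 genes of motile cilia, which liver cells lack, 7 had higher and 11 lower means with a median difference of -0.05, and 0 of them lay above the median gene. Lrrc6, an assembly factor of motile cilia, was the 1 with an unadjusted p under 0.05, where 4.01% of all genes were lower by that measure. It had 2.21, 2.34 and 2.04 in SHH livers and 2.95, 2.85 and 2.89 in GFP livers, 1.63-fold lower at very low signals (limma, adjusted p = 0.318). All 10 endothelial markers had lower means in SHH livers, by a median of 0.19 on the log2 scale, where 43.8% of all genes had a higher mean. Their averages were 6.584, 6.235 and 6.959 in SHH livers and 7.051, 6.799 and 6.607 in GFP livers. The groups overlapped, with SHH 31 above GFP 13 and GFP 21. Of the 10, 0 had an unadjusted p under 0.05, where 4.01% of all genes were lower by that measure.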
